A study of Mus musculus with 4 samples.

Results

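The integrated stress response genes described here are 10 of the 30028 genes listed in 4 single-cell RNA libraries of mouse lung, and they were taken by symbol: Atf4, Atf5, Ddit3, Trib3, Asns, Chac1, Psat1, Phgdh, Sesn2 and Gdf15. All 10 were listed in every library. The libraries were NW (normoxia, wild type), NK (normoxia, Fundc1 knockout), HSW (HySu, wild type) and HSK (HySu, Fundc1 knockout), 1 library a group. Each held pooled lung cells of 5 mice aged 11 weeks. HySu is a model of pulmonary hypertension that joins hypoxia with SU5416, an inhibitor of VEGF receptors, here in 3 weekly doses. Animals of the NW and NK groups stayed in normoxia and were given the vehicle. The labels do not state in which cells Fundc1, whose product marks mitochondria for mitophagy, was deleted. With all kept cells summed, the Fundc1 level was 43.9, 1.04, 39.4 and 0.251 for NW, NK, HSW and HSK in CPM, the UMIs of a gene per 1000000 UMIs. In alveolar macrophages it was 52.0, 1.05, 53.1 and 0.134 CPM, so the low knockout values were not limited to endothelium. In vascular endothelium it was 24.1, 0, 47.6 and 0 CPM.

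The integrated stress response starts with kinases that sense amino acid shortage, unfolded protein, double-stranded RNA, haem loss or mitochondrial distress. They phosphorylate eIF2alpha, which slows most translation and favours that of ATF4. ATF4 then switches on genes of amino acid synthesis and transport, tRNA charging and stress resistance, and, with prolonged stress, CHOP, the product of Ddit3. Because ATF4 is set mainly at translation, the level of Atf4 mRNA is not a reading of ATF4 protein. The gene set runs from regulators (Atf4, Atf5, Ddit3), through feedback and redox genes (Trib3, Chac1, Sesn2) and enzymes of amino acid synthesis (Asns, Psat1, Phgdh), to a secreted product (Gdf15).

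ATF4 binds with C/EBP partners to composite elements, and the sequences below show where letters of that kind stood in front of the target genes among the 10. The RefSeq promoter table (GRCm38.p6) held 13 promoters of the 10 genes, and the 250 bases before each start were searched on both strands for TGATGNAA and for TGNTGCAA. These patterns overlap where both fit, and the second was chosen after the promoters had been seen. A match stood in 5 of the 13 promoters, against 5.32% of 32817 promoters of the same length. The pattern TGATGNAA stood in 2 of the 13 and in 3.45% of all promoters, and TGNTGCAA in 4 of the 13 and in 2.72%. Since TGNTGCAA was chosen with these promoters in view, its count and the count of 5 cannot be weighed against the background. Each run below is written 5′ to 3′ on the gene's own strand, with the match in capitals.
Asns (chr6:7693214-7693243, minus strand, match from base -23): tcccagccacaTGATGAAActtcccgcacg
Trib3 (chr2:152344075-152344104, minus strand, match from base -33): cgggtcacagaTGGTGCAAtcccgggccgc
Psat1 (chr19:15925177-15925206, minus strand, match from base -136): acgcgggtggcTGGTGCAAtcccctgctct
Chac1 (chr2:119351038-119351067, plus strand, match from base -193): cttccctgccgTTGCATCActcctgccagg
Sesn2 (chr4:132510656-132510685, minus strand, match from base -218): catgcaaaagtTTGCAGCAtctgtgcgagg
In Chac1 and Sesn2 the match read on the strand opposite to the gene. The letters were not found in this window of Atf4, Atf5, Ddit3, Phgdh or Gdf15, or of the other Psat1 promoter. In GENCODE vM21 (GRCm38), Atf5 (chr7:44812256-44816658) overlaps Nup62 and Il4i1 on the opposite strand, and Ddit3 (chr10:127290774-127296288) overlaps Mars and Gm4189 on the opposite strand and a further gene record of its own symbol. Psat1 holds the pseudogene Gm3329, and Sesn2 overlaps Gm12981. The sources used here do not say whether counting used strand, so UMIs of such overlaps could be shared.

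After quality filtering and removal of cells with transcripts of more than 1 lineage, NW, NK, HSW and HSK kept 5403, 5882, 4007 and 3585 cells. The lowest UMI count of a deposited cell was 3775, 3182, 4230 and 4726 in these libraries, so the libraries differed in their minimum as well as in depth. Between 20 and 70 cell barcodes were shared by each pair of libraries. Mixed cells made up 29.4% of NW, 35.8% of NK, 20.3% of HSW and 12.6% of HSK. Scrublet, a doublet caller, marked at most 24 cells a library, and how many doublets it missed was not tested. Clusters were named from marker genes, and 13 classes had at least 30 cells in NW and HSW. Vascular endothelial cells numbered 52, 125, 272 and 125, alveolar macrophages 1116, 1616, 894 and 1285, and alveolar type 2 cells 1057, 1219, 939 and 1211 in NW, NK, HSW and HSK. Levels are in CPM, taken over all UMIs of the class in that library. Ratios carry 95% intervals of counting error only. With 1 library a group no test is possible, and variation between mice or captures is not measured by any value below.

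**Figure D1:**
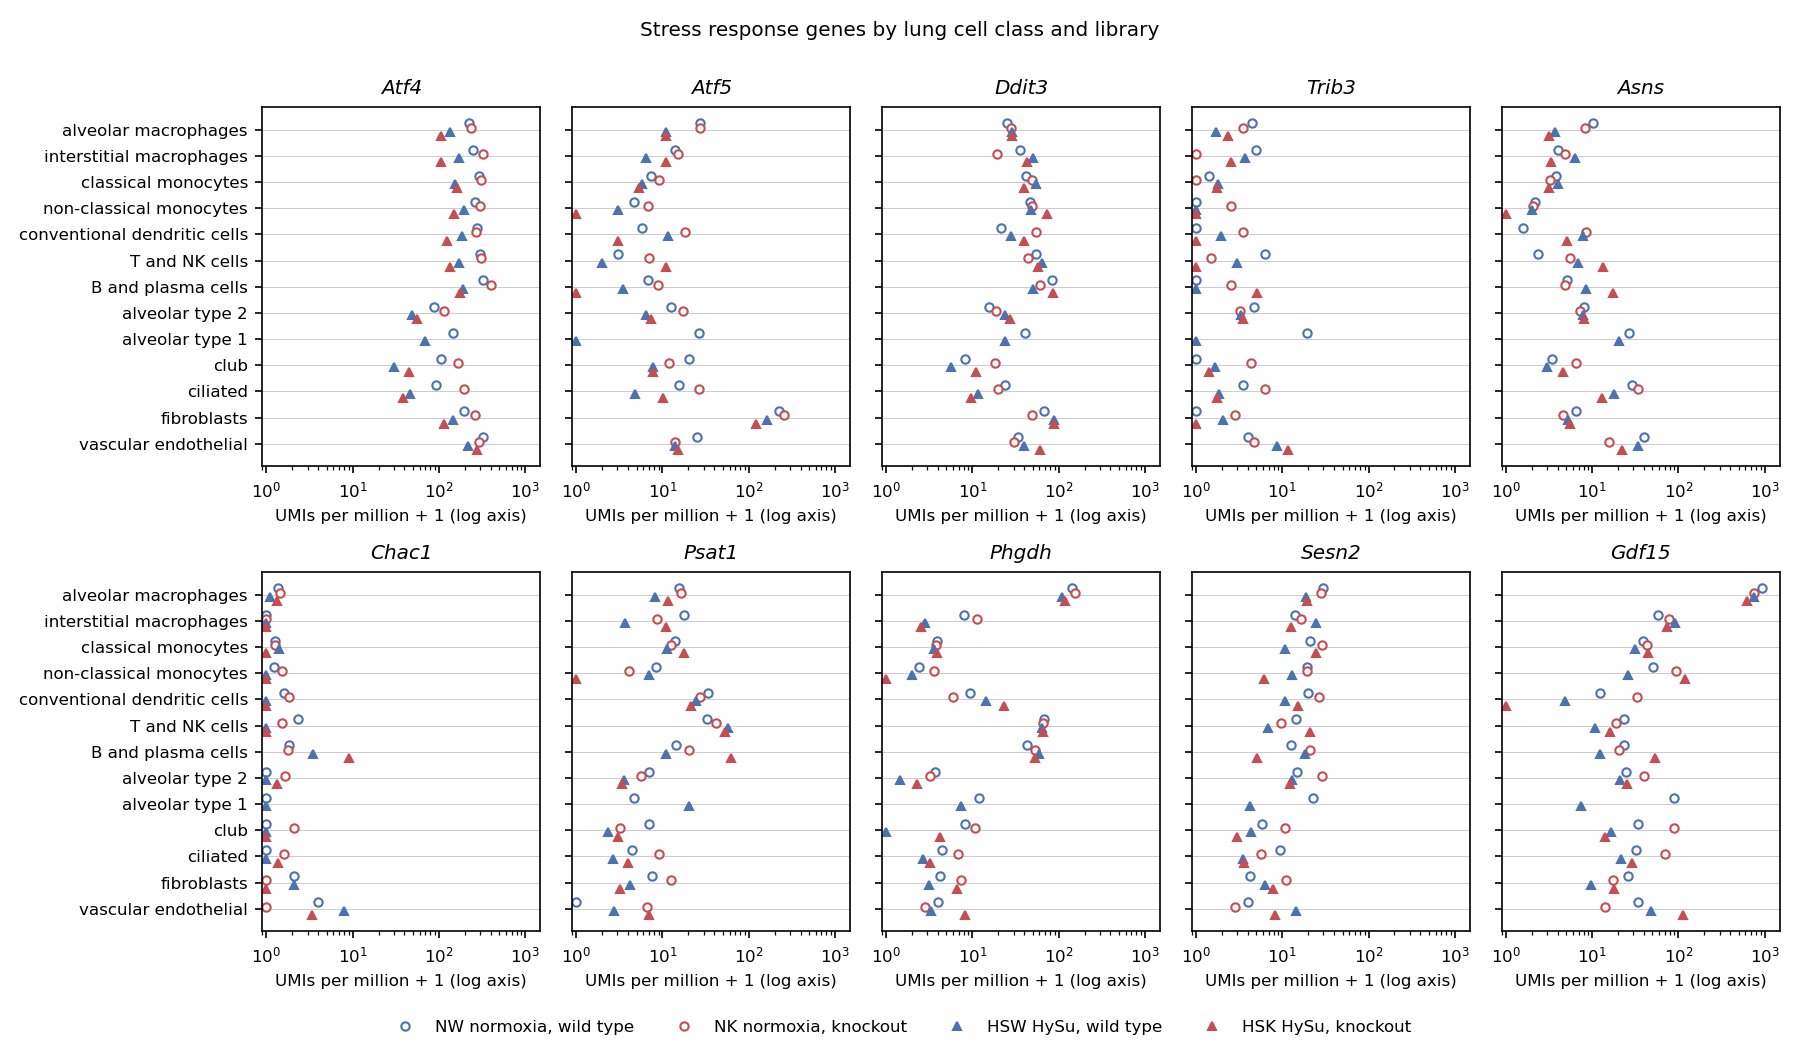
Level of each of the 10 genes in 13 lung cell classes. The horizontal axis of each panel is CPM with 1 added, on a log axis, each point is 1 class in 1 library, open symbols are normoxia and filled symbols HySu, blue is wild type and red is knockout. Gdf15 and Phgdh stand highest in alveolar macrophages, Atf5 in fibroblasts, and Atf4 is spread over all classes.

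The genes divided by where they were found. Alveolar macrophages, the resident phagocytes of the airspace, carried most of the UMIs of Gdf15 and Phgdh. Fibroblasts held the highest level of Atf5, T and NK cells the highest mean of Psat1, and vascular endothelium the highest mean levels of Atf4, Asns and Chac1. These orders are within a gene; levels of different genes were not compared.

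Atf4 was broadly expressed. Its level in vascular endothelium was 328, 292, 220 and 279 CPM (here and below in the order NW, NK, HSW, HSK), the highest mean of any class at 279.9 CPM. B and plasma cells followed with 321, 399, 192 and 174 CPM, a range that holds the whole endothelial range, so the order of these neighbours is not settled. The lowest mean was in alveolar type 2 cells, with 86.1, 115, 47.9 and 54.8 CPM. Club cells, with 105, 167, 29.6 and 44.7 CPM, and ciliated cells, with 91.4, 197, 45.5 and 38.0 CPM, had wider ranges that held these values.

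Atf5 encodes a further bZIP factor of the response, also linked to mitochondrial protein stress. Fibroblasts had 223, 254, 162 and 119 CPM. The next class, alveolar macrophages, had 26.0, 26.6, 10.0 and 9.88 CPM, so the fibroblast values lay above those of every other class in every library. Fibroblasts gave 29.3% of the Atf5 UMIs of all named classes from 2.58% of their UMIs. Shares of cells with a UMI were also taken with each cell thinned to 4000 UMIs, which leaves out shallower cells, 377 of NW, 1569 of NK and 0 of HSW and HSK. Among thinned fibroblasts, 53.02%, 48.1%, 35.8% and 35.6% had an Atf5 UMI, and without thinning 57.0%, 56.4%, 46.4% and 44.7%. The thinned share in T and NK cells was 0.939%, 2.75%, 0% and 0%, where 0 of 51 HSK cells allows a share of up to 5.88%; without thinning it was 1.27%, 2.90%, 0.654% and 5.88%.

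Ddit3 was highest in fibroblasts, at 67.1, 47.7, 86.8 and 87.7 CPM in NW, NK, HSW and HSK. B and plasma cells had 83.2, 59.8, 48.8 and 85.0 CPM and T and NK cells 53.6, 43.6, 62.7 and 57.1 CPM. These 3 classes overlapped one another. Alveolar type 2 cells had 14.5, 17.6, 23.1 and 26.4 CPM, below all of them.

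Trib3, a pseudokinase that binds ATF4 and restrains it, and Chac1, which degrades glutathione, were near the limit of detection. All libraries together held 303 Trib3 UMIs and 71 Chac1 UMIs. The highest Trib3 mean was in alveolar type 1 cells, with 5 UMIs or 18.2 CPM in NW and none in HSW, which rests on too few UMIs for an order. Vascular endothelium came next with 3.01, 3.69, 7.64 and 10.7 CPM, from 1, 2, 13 and 9 UMIs. Chac1 had 1, 0, 12 and 2 UMIs in vascular endothelium, or 3.01, 0, 7.05 and 2.38 CPM. B and plasma cells had 0.832, 0.777, 2.50 and 8.10 CPM, so these classes overlapped. No pair of libraries had 20 Chac1 UMIs in any class, so this gene enters none of the ratios.

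Sesn2 encodes Sestrin 2, a leucine sensor that restrains mTORC1. Alveolar macrophages had 29.0, 27.3, 17.7 and 18.2 CPM. Classical monocytes had 20.05, 27.6, 9.60 and 23.9 CPM, which overlaps the macrophage range.

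Asns makes asparagine from aspartate and glutamine. Vascular endothelium had 39.1, 14.8, 32.9 and 21.4 CPM, from 13, 8, 56 and 18 UMIs, and ciliated cells, next among classes present in all libraries, had 27.9, 33.1, 16.8 and 12.03 CPM. The endothelial and ciliated ranges overlapped. Psat1, the aminotransferase of serine synthesis, had its highest mean in T and NK cells, with 31.5, 41.1, 56.8 and 52.1 CPM. Conventional dendritic cells had 33.2, 26.2, 23.2 and 20.5 CPM and B and plasma cells 13.3, 19.4, 10.0 and 60.7 CPM, the last from 15 UMIs in 35 cells. The ranges overlapped: dendritic cells stood above T and NK cells in NW, and B and plasma cells above them in HSK.

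Phgdh, the enzyme of the first step of serine synthesis, stood at 142, 154, 108 and 118 CPM in alveolar macrophages. That class gave 90.9% of the Phgdh UMIs of all named classes from 37.9% of their UMIs. T and NK cells had 67.0, 65.7, 63.7 and 64.6 CPM and B and plasma cells 41.6, 52.1, 58.8 and 52.6 CPM. Every macrophage value lay above every lymphocyte value. Shares of thinned cells with a Phgdh UMI were 33.8%, 37.6%, 32.1% and 31.1% in alveolar macrophages, against 59.3%, 55.6%, 57.0% and 55.6% without thinning. In alveolar type 2 cells, where the level was 0.431 to 2.65 CPM, the thinned share was 0.831%, 0.979%, 0.213% and 0.661%. Lymphocyte shares lay well above that, at 15.0% to 20.2% of thinned T and NK cells. Psat1, which acts after Phgdh in the same pathway, was not highest in alveolar macrophages, which had 14.6, 15.3, 7.14 and 10.5 CPM of it. By mean level, T and NK cells, B and plasma cells and conventional dendritic cells led for Psat1. The same classes in the same order followed alveolar macrophages for Phgdh.

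Gdf15 encodes a secreted stress cytokine of the TGF-beta superfamily. Its level among alveolar macrophages was 933, 742, 744 and 626 CPM. That class held 43114 of the 46227 Gdf15 UMIs of named classes, or 93.3%. Interstitial macrophages, the next class, had 57.5, 77.3, 89.8 and 72.3 CPM. A Gdf15 UMI was seen in 61.6%, 54.4%, 50.2% and 50.04% of thinned alveolar macrophages, and in 71.7%, 63.6%, 60.3% and 59.2% without thinning. The thinned share in T and NK cells was 6.57%, 4.59%, 2.61% and 5.88%, and 8.02%, 7.12%, 5.23% and 11.8% without thinning. Transcripts of alveolar macrophages in other cells were gauged with 6 of their markers (Marco, Ear2, Krt79, Fabp1, Plet1 and Atp6v0d2). The same 6 were among the markers used to remove mixed cells outside macrophages, monocytes and dendritic cells. Low marker percentages in those other classes thus follow in part from that removal, which did not use Gdf15. In T and NK cells the 6 markers stood at 1.52%, 2.34%, 1.01% and 1.84% of their level in macrophages, and Gdf15 at 2.37%, 2.43%, 1.32% and 2.38% of its own. In interstitial macrophages the markers stood at 9.29%, 14.6%, 6.66% and 9.55%, and Gdf15 at 6.16%, 10.4%, 12.1% and 11.5%.

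**Figure D2:**
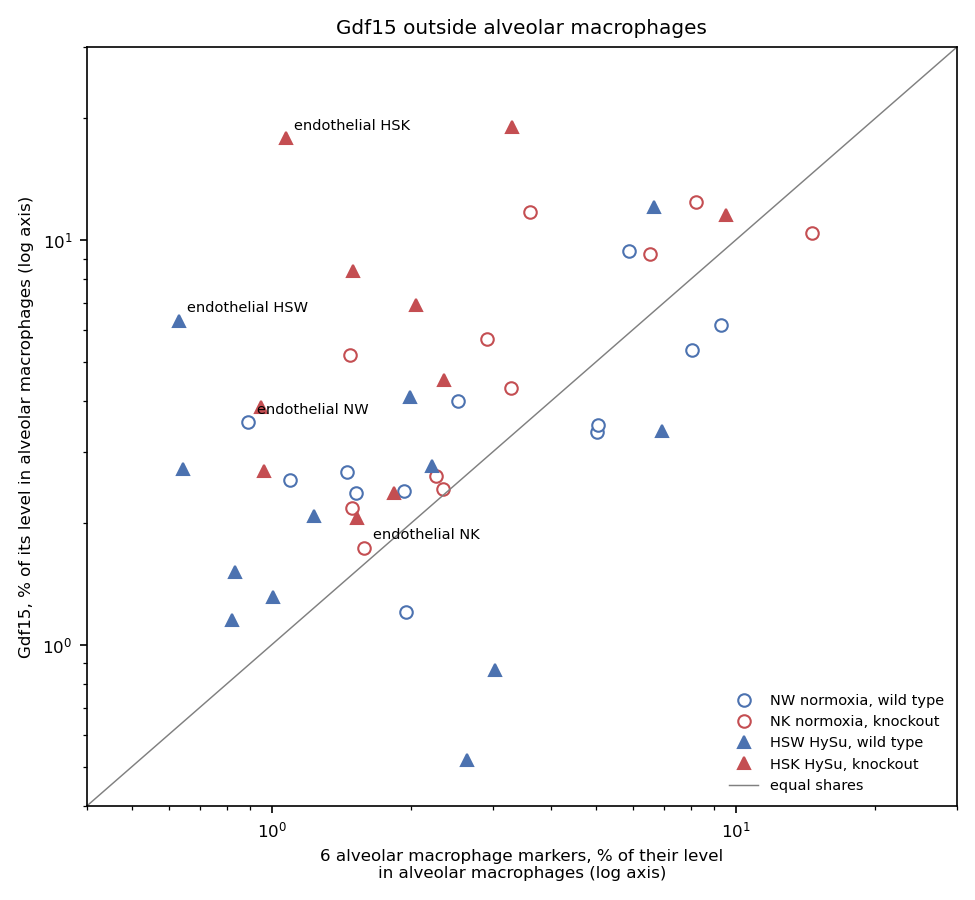
Gdf15 outside alveolar macrophages. Each point is 1 class in 1 library, the horizontal axis is the summed level of 6 alveolar macrophage markers and the vertical axis the level of Gdf15, both as a percentage of the level in alveolar macrophages of the same library on log axes, and the line marks equal percentages. Vascular endothelium of HSK stands at 17.8% against 1.07%, and conventional dendritic cells of HSK, with no Gdf15 UMI, are not drawn. Outside macrophages, monocytes and dendritic cells, the 6 markers were also used to remove mixed cells, which lowers their percentages.

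The first comparison set HySu against normoxia in wild type, HSW against NW. Of 130 pairings of a gene with a class, 74 had the 20 UMIs needed. A ratio of at least 1.5 was found in 7 of the 74 and a ratio of at most 1/1.5 in 36. Over all genes the percentages past the same limits were 7.51% higher and 36.9% lower, and among the 74 they were 9.46% and 48.6%. This background was skewed downward: the median log2 ratio was -0.37 over all gene-class pairs and -0.58 over the 74. With trimmed-mean (TMM) scaling the all-gene median was near 0, the split for the 10 genes became 12 higher and 21 lower, and the all-gene percentages became 17.2% and 16.5%. For the main differences with HySu the TMM ratio is given too.

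In the knockout, HSK against NK, 69 of 120 pairings could be measured, and 7 were higher and 34 lower. The percentages over all genes were 9% higher and 47.3% lower, so the lower share of the 10 genes, 49.3%, was near the background. Median log2 ratios were -0.52 over all pairs and -0.58 over the 69. TMM scaling gave 19 higher and 18 lower, against 21.7% and 20.4% of all pairs.

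Atf4 was lower with HySu. Its ratio HSW to NW was below 1 in 13 of 13 classes, by either scaling, and below the class median of all genes in each of them. Past the limit were 8 classes by total UMIs and 2 by TMM. In the knockout its ratio was below 1 in 12 of 12 classes by total UMIs and in 11 of 12 by TMM, with 11 and 8 classes past the limit. Vascular endothelium was the exception: its Atf4 ratio was 0.671 (TMM 0.705) in wild type and 0.959 (TMM 1.10) in the knockout.

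Alveolar macrophages had 222, 236, 132 and 106 CPM of Atf4. The ratio was 0.597 (0.561 to 0.636) in wild type and 0.448 (0.422 to 0.475) in the knockout, with TMM ratios of 0.704 and 0.561. Both HySu libraries were lower than both normoxia libraries. The share of thinned macrophages with an Atf4 UMI was 49.4%, 50.8%, 36.4% and 30.1%, and 77.6%, 74.6%, 62.2% and 51.7% without thinning.

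Monocytes and lymphocytes had the same order. Classical monocytes had 291, 311, 154 and 161 CPM, with ratios of 0.531 (0.488 to 0.576) and 0.519 (0.448 to 0.599). T and NK cells had 296, 305, 171 and 134 CPM, with ratios of 0.579 (0.483 to 0.691) and 0.440 (0.327 to 0.582). The B and plasma ratios were 0.597 and 0.436. In these classes too, the groups with HySu did not overlap those without it. The ratio in non-classical monocytes, 264, 299, 195 and 150 CPM, was 0.503 (0.334 to 0.730) in the knockout, where HSK held 33 such cells. Under TMM none of these classes was past the limit in wild type, with ratios of 0.672 to 0.919. The knockout TMM ratios were 0.699 in classical and 0.659 in non-classical monocytes, 0.589 in T and NK cells and 0.625 in B and plasma cells.

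Other classes repeated this order. Alveolar type 2 cells, with the Atf4 levels given above, had ratios of 0.557 (0.485 to 0.639) and 0.475 (0.423 to 0.533). Their class medians of all genes were -0.46 and -0.60 on the log2 scale, and the TMM ratios were 0.766 and 0.717. Fibroblasts had 197, 261, 147 and 115 CPM, with a ratio of 0.440 (0.348 to 0.553) in the knockout. In interstitial macrophages, at 252, 325, 169 and 105 CPM, the knockout ratio was 0.324 (0.261 to 0.400). For conventional dendritic cells it was 0.461 (0.345 to 0.607), from 279, 271, 186 and 125 CPM. Alveolar type 1 cells, with 146 CPM in NW and 67.7 in HSW, had a ratio of 0.464 (0.260 to 0.806) and a TMM ratio of 0.524. The knockout TMM ratios were 0.568 in fibroblasts, 0.467 in interstitial macrophages and 0.656 in dendritic cells.

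By total UMIs the lowest Atf4 ratio was in club cells in wild type and in ciliated cells in the knockout, and both classes shifted with the scaling. For ciliated cells the Atf4 ratios were 0.498 (0.378 to 0.656) and 0.193 (0.153 to 0.242), and for club cells 0.282 (0.192 to 0.410) and 0.267 (0.207 to 0.344). The class medians of all genes were -0.91 and -1.18 in ciliated cells and -1.21 and -1.44 in club cells. TMM ratios were 0.930 and 0.435 in ciliated cells and 0.655 and 0.718 in club cells. Genes that dissociation is known to induce were summed as a share of UMIs. The share was 1.35%, 1.40%, 0.914% and 0.814% in classical monocytes and 0.720%, 0.748%, 0.574% and 0.513% in alveolar macrophages. Vascular endothelium, with 0.673%, 0.671%, 0.635% and 0.681%, did not show this fall. Not all genes of the list were lower: Hspa1a and Hspa1b were 1.85 and 1.97 times NW in alveolar macrophages of HSW. The part of these genes in the Atf4 difference was not tested.

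Ddit3 did not share the Atf4 pattern. Its ratio HSW to NW was below 1 in 2 of 11 classes, and HSK to NK in 4 of 12 by total UMIs and 0 of 12 by TMM. By total UMIs 1 class was past the limit upward and 2 downward in wild type, and 3 upward and 2 downward in the knockout. TMM scaling gave 5 upward and 0 downward, and 8 upward and 0 downward.

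Alveolar type 2 cells had Ddit3 ratios of 1.59 (1.23 to 2.08) in wild type and, within the limit, 1.498 (1.19 to 1.90) in the knockout. The TMM ratios, 2.19 and 2.26, were both past it. Both HySu values lay above both normoxia values. The class held 2 clusters. In the one led by Sprr1a and Pla2g1b, Ddit3 was 12.8, 19.7, 41.4 and 51.7 CPM, and in the one led by Cst8 and Scd1 it was 15.9, 16.2, 17.5 and 19.0 CPM, where the counting intervals of all libraries overlap. The Cst8 cluster made up 54.6%, 60.3%, 75.1% and 76.3% of the class. Fibroblast Ddit3 was 1.84 (1.28 to 2.66) times as high in HSK as in NK, with a TMM ratio of 2.38. Interstitial macrophages had 34.7, 18.0, 49.4 and 42.0 CPM, and the knockout ratio of 2.33 (1.28 to 4.54; TMM 3.36) rested on 14 UMIs in NK. It turned to a log2 ratio of -0.29 when mixed cells were kept. Vascular endothelium had 33.1, 29.5, 38.8 and 60.7 CPM, with a knockout ratio of 2.05 (1.15 to 3.86; TMM 2.35) that came to 0.51 on the log2 scale, within the limit, when mixed cells were kept.

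Downward Ddit3 ratios were in B and plasma cells of wild type, 0.587 (0.395 to 0.858; TMM 0.748), in ciliated cells of both genotypes and in club cells of the knockout. Ciliated cells had 22.8, 18.6, 10.5 and 8.65 CPM, with ratios of 0.461 (0.256 to 0.825) and 0.465 (0.260 to 0.819). With TMM these ciliated ratios were 0.861 and 1.05, so the direction in the knockout depended on the scaling. The club ratio was 0.576 (0.296 to 1.15), from 16 UMIs in NK and 25 in HSK, with an interval that holds 1, and TMM turned it to 1.55.

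**Figure D3:**
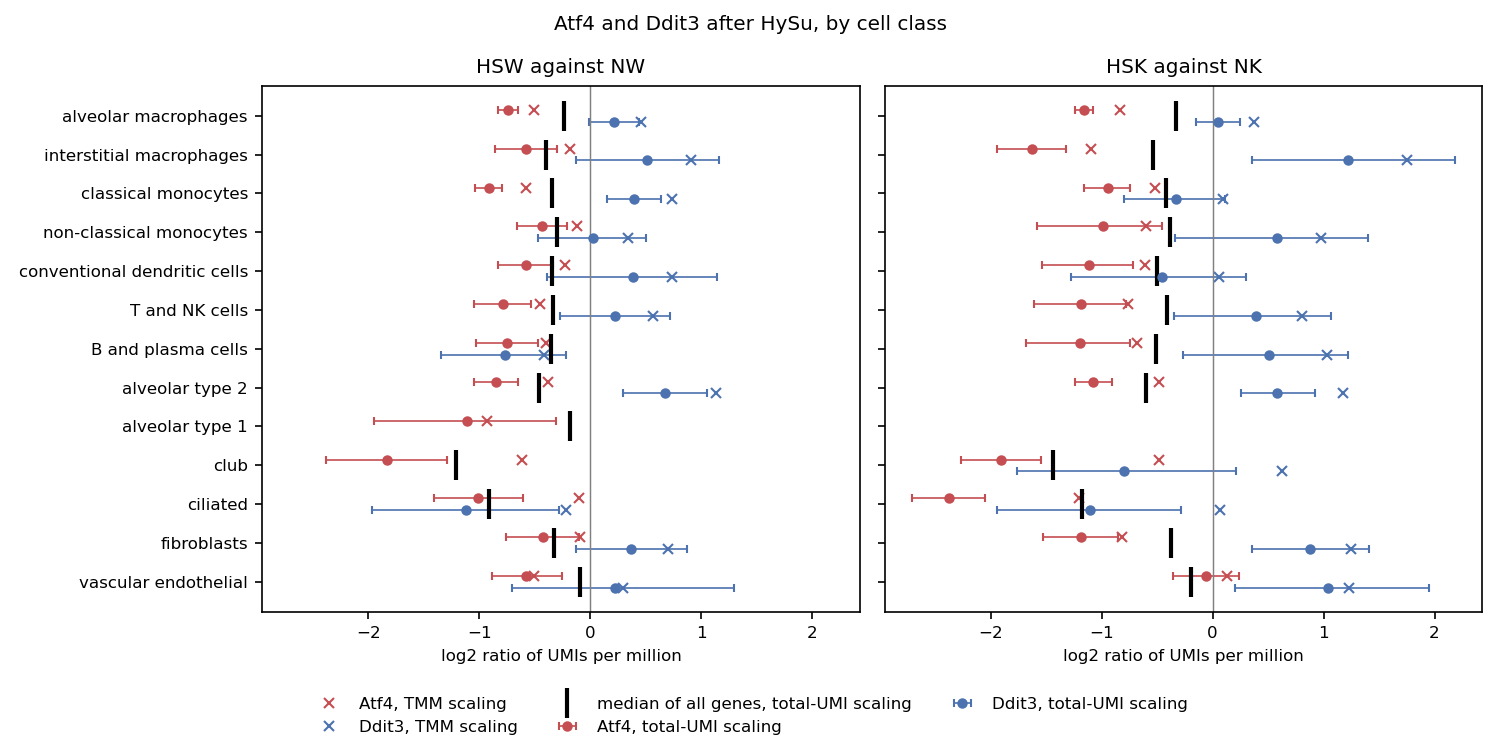
Atf4 (red) and Ddit3 (blue) after HySu in each cell class, for wild type (HSW against NW) and knockout (HSK against NK). The horizontal axis is the log2 ratio of CPM, where dots with 95% counting intervals use total-UMI scaling, crosses use TMM scaling and black bars mark the median of all genes. Atf4 lies left of the bars in 13 of 13 and 11 of 12 classes, and Ddit3 lies right of them in 9 of 11 and 12 of 12.

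In alveolar macrophages 6 of the 9 measured genes were past the limit downward in wild type and 4 in the knockout, and 0 upward in either, against 18.5% and 27.4% of all genes downward. The median log2 ratio of the 9 was -0.74 in wild type and -0.58 in the knockout, and that of all genes -0.24 and -0.33.

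There Asns was 9.16, 7.29, 2.68 and 2.15 CPM. Its ratios of 0.292 (0.190 to 0.437) and 0.295 (0.193 to 0.439) were nearly equal in wild type and knockout, and TMM gave 0.345 and 0.369. Atf5 had ratios of 0.384 (0.308 to 0.476) and 0.372 (0.306 to 0.449), with TMM ratios of 0.453 and 0.465. For both genes the HySu libraries did not overlap the normoxia libraries.

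Trib3 was 3.47, 2.47, 0.714 and 1.34 CPM from 50, 40, 8 and 20 UMIs, with ratios of 0.206 (0.0843 to 0.438) and 0.544 (0.301 to 0.952). The knockout value was within the limit by TMM, at 0.681. Psat1 had ratios of 0.490 (0.374 to 0.637) and, within the limit, 0.687; with cells thinned the wild-type value was -0.18 on the log2 scale. Sesn2 had ratios of 0.610 (0.512 to 0.724) and 0.668, which TMM moved to 0.719 and 0.837.

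Phgdh and Gdf15, the genes of which this class holds most UMIs, stayed within the limit. Their ratios HSW to NW were 0.759 and 0.797, and HSK to NK 0.766 and 0.844. TMM brought them to 0.895 and 0.940 in wild type and to 0.959 and 1.06 in the knockout. Ddit3, at 24.01, 27.1, 28.0 and 28.0 CPM, also stayed within it.

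**Figure D4:**
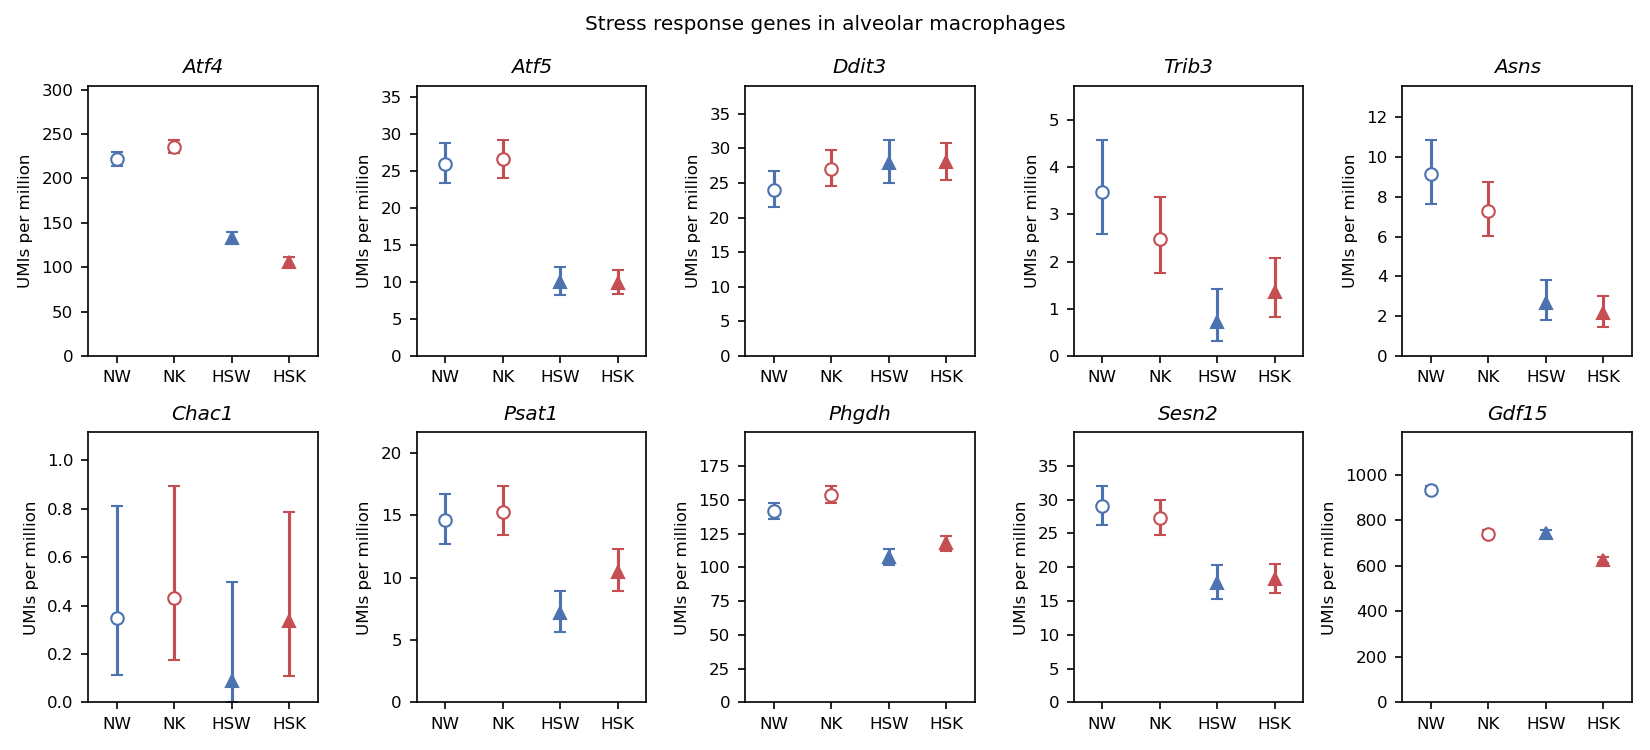
The 10 genes in alveolar macrophages. The vertical axis of each panel is the level in CPM and starts at 0, each point is 1 library (open circles normoxia, filled triangles HySu, blue wild type, red knockout) and bars are 95% counting intervals. Atf4, Atf5, Trib3, Asns, Psat1, Phgdh and Sesn2 are lower in both HySu libraries than in both normoxia libraries, while Ddit3 lies between 24.01 and 28.0 CPM.

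This class was made of 3 clusters whose proportions differed between libraries. One, with Cxcl3 and Gdf15 among its leading genes, was 50.4%, 43.9%, 36.1% and 29.3% of the class, and one led by Ear2 and Ear1 was 37.8%, 44.6%, 57.5% and 60%. Asns was 9.20, 8.35, 2.73 and 1.94 CPM in the Cxcl3 cluster and 10.2, 5.60, 1.35 and 1.23 CPM in the Ear2 cluster. The lower level with HySu thus stood within both clusters. The third was led by Prss34, Mpo and Tk1, with the cycling markers Top2a, Birc5 and Ube2c also among its leading genes. It had 6.76, 8.17, 11.6 and 6.12 CPM of Asns from 10 to 19 UMIs a library and did not show the lower level. Atf4 was 237, 256, 140 and 125 CPM in the Cxcl3 cluster and 192, 204, 117 and 86.0 CPM in the Ear2 cluster. In the third cluster it was 224, 250, 199 and 138 CPM. There the counting intervals of NW (204 to 246) and HSW (170 to 231) overlapped.

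Gdf15 in the Cxcl3 cluster was 1063, 882, 1074 and 999.5 CPM, and in the Ear2 cluster 540, 518, 461 and 347 CPM. The third cluster had 1271, 860, 1005 and 882 CPM, so high Gdf15 was not particular to the Cxcl3 cluster. The 10 genes were kept out of the genes that built the clusters, though genes that vary with them were not. Differences between the clusters are thus a description. Psat1 was highest in the third cluster, at 32.3, 46.5, 25.6 and 34.4 CPM against 5.22 to 11.98 CPM in the others. Phgdh was 193, 211, 176 and 199 CPM there and 101 to 147 CPM in the others.

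Single macrophages could hold several of the genes at once. With 9 genes counted (Atf4 left out) and cells thinned to 4000 UMIs, 10.7%, 9.35%, 5.15% and 3.89% of alveolar macrophages had UMIs of at least 3. Without thinning the shares were 33.2%, 26.5%, 21.4% and 19.9%. Counting intervals of the thinned shares spanned 7.93% to 12.7% in the normoxia libraries and 2.90% to 6.80% in the HySu libraries. They are taken over cells and hold no variation between mice or captures, so they do not compare the conditions. Gdf15 and Phgdh were each found in many of these cells, and the share expected from separate detection is not given here. In thinned alveolar type 2 cells the shares were 0.208%, 0.367%, 0.426% and 0.165%, and 0.757%, 0.738%, 0.958% and 1.07% without thinning.

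In alveolar type 2 cells, which secrete surfactant, lower values with HySu were seen for Atf5 and Psat1 and, in the knockout, Sesn2. Atf5 was 11.4, 16.1, 5.45 and 6.27 CPM, with ratios of 0.479 (0.315 to 0.718) and 0.388 (0.276 to 0.542). Psat1 was 5.93, 4.68, 2.58 and 2.38 CPM, with ratios of 0.436 (0.234 to 0.783) and 0.508 (0.278 to 0.915). Sesn2 was 13.7, 27.6, 12.1 and 11.2 CPM, highest in NK, with a knockout ratio of 0.407 (0.316 to 0.523). Under TMM these ratios were 0.659 and 0.585 for Atf5, 0.600 and 0.765 for Psat1 and 0.614 for Sesn2. Asns did not repeat the macrophage pattern, at 7.02, 6.29, 6.89 and 7.02 CPM.

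Elsewhere, Atf5 in fibroblasts had a knockout ratio of 0.470 (0.373 to 0.590) and a TMM ratio of 0.607, and came to -0.44 on the log2 scale when mixed cells were kept. Sesn2 in classical monocytes was 0.479 (0.338 to 0.667; TMM 0.606) in wild type. Psat1 in T and NK cells went the other way in wild type, with a ratio of 1.80 (1.21 to 2.71; TMM 2.28). In ciliated cells of the knockout, Atf5 went from 25.6 to 9.02 CPM and Asns from 33.1 to 12.03 CPM, ratios of 0.353 and 0.363 that TMM moved to 0.795 and 0.818. In wild type, Asns in ciliated cells was 0.603 (TMM 1.13) and Sesn2 in non-classical monocytes, at 18.4, 18.2, 12.1 and 5.19 CPM, 0.657 (TMM 0.815).

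Over all classes, alveolar macrophages included, Gdf15 was past the limit downward in 8 of 13 and upward in 1 in wild type. In the knockout it was downward in 4 of 12 and upward in 2. Of all gene-class pairs, 36.9% were lower and 7.51% higher in wild type, and 47.3% lower and 9% higher in the knockout. By TMM, Gdf15 was downward in 6 and upward in 1 in wild type, and downward in 2 and upward in 3 in the knockout. All pairs by TMM gave 16.5% lower and 17.2% higher in wild type, and 20.4% lower and 21.7% higher in the knockout. Among the lower ratios of wild type were T and NK cells at 0.443 (0.195 to 0.920), conventional dendritic cells at 0.343 (0.0849 to 1.03) and alveolar type 1 cells at 0.0737 (0.00844 to 0.297), from 10, 4 and 2 UMIs in HSW. Fibroblasts, at 0.344 (0.133 to 0.798), turned to a log2 ratio of 0.71 when mixed cells were kept. Interstitial macrophages were higher in wild type, with a ratio of 1.56 (1.12 to 2.20), which came to -0.00484 on the log2 scale when mixed cells were kept. Non-classical monocytes were lower, 0.505 (0.320 to 0.767), or -0.96 on the log2 scale, which came to -0.48 with mixed cells kept and to -2.66 with the 10 genes kept among the clustering genes. Club cells had ratios of 0.475 (0.260 to 0.861) and 0.147 (0.0946 to 0.225), and TMM ratios of 1.10 and 0.396. The knockout value, -2.75 on the log2 scale, came to -1.51 with another random seed or with the 10 genes kept among the clustering genes, and to -4.55 with cells thinned. In ciliated cells they were 0.659 (0.421 to 1.04) and 0.411 (0.303 to 0.553), and 1.23 and 0.926 by TMM, so in wild type both airway classes turned direction with the scaling. Alveolar type 2 cells had a knockout ratio of 0.630 (0.523 to 0.759), which was 0.950 by TMM.

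Vascular endothelium, the class the series title names, showed a different picture, led by Gdf15. Its level was 33.1, 12.9, 47.0 and 112 CPM, from 11, 7, 80 and 94 UMIs. HSK to NK was 8.66 (4.04 to 22.1) and HSW to NW 1.42, and the TMM ratio of the former was 9.89. The 6 macrophage markers in the same cells stood at 0.892%, 1.59%, 0.631% and 1.07% of their macrophage level, and Gdf15 at 3.55%, 1.74%, 6.32% and 17.8%. Endothelial cells rich in these markers had been removed as mixed, so the marker percentages cannot gauge carried-over Gdf15 here. Thinning kept 49 of 52, 62 of 125, 272 of 272 and 125 of 125 endothelial cells, and of those kept 10.2%, 3.23%, 12.5% and 21.6% had a Gdf15 UMI. The shares were 15.4%, 4.80%, 17.6% and 28.0% without thinning, at median depths of 5005, 3982, 5387.5 and 5966 UMIs; the same shares in T and NK cells are given above.

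These ratios depended on the removal of mixed cells. With only Scrublet calls removed, the log2 ratio HSK to NK was 0.17 and HSK to HSW 0.42. Haemoglobin took 1.20%, 0.0164%, 0.982% and 0.296% of endothelial UMIs. Their part in the result was not tested. Asns in endothelium was 0.841 of NW in HSW and 1.45 times NK in HSK, the latter from 8 and 18 UMIs.

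The second comparison set knockout against wild type under normoxia, NK against NW. Of 120 pairings 73 were measured, 14 were higher and 9 lower, against 14.6% and 8.59% of all genes. TMM gave 11 higher and 9 lower, 15.1% and 12.3%, against 11.2% and 11.1% of all genes. The 10 genes came to 19.2% and 12.3%, and their median log2 ratio was 0.10 beside 0.09 for all genes. With at least 50 UMIs, 53 pairings were measured, with a median log2 ratio of 0.18 beside 0.08 for all genes. The counts were then 10 higher and 0 lower, and the share of all genes at this minimum is not given here. NW and NK are also the controls of the HySu comparisons, which share these libraries.

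Gdf15 accounted for 5 of the 10, all of them outside alveolar macrophages. Conventional dendritic cells had 11.3 CPM in NW and 32.0 in NK, a ratio of 2.84 (1.60 to 5.21), with 3.86 in HSW and 0 in HSK. Club cells had 32.6 and 87.3 CPM, a ratio of 2.68 (1.71 to 4.31), with 15.5 in HSW and 12.9 in HSK. Ciliated cells had 31.3, 68.6, 20.6 and 28.2 CPM, a ratio of 2.19 (1.504 to 3.26). In these 3 classes NK was the highest library.

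Non-classical monocytes had 49.8 and 92.2 CPM of Gdf15, a ratio of 1.85 (1.51 to 2.27), with 25.2 in HSW and 119 in HSK. Alveolar type 2 cells had 23.9, 38.6, 20.2 and 24.3 CPM, a ratio of 1.62 (1.31 to 1.99). Macrophage markers and Gdf15 were also set, for NW and NK, as percentages of their own level in alveolar macrophages. In dendritic cells the markers went from 1.95% to 3.28% and Gdf15 from 1.21% to 4.31%. The club values were 5.05% to 3.61% and 3.49% to 11.8%, and the ciliated values 5.03% to 6.53% and 3.35% to 9.24%. For non-classical monocytes they were 8.05% to 8.23% and 5.34% to 12.4%, and for type 2 cells 1.09% to 1.47% and 2.56% to 5.20%. Whether carried-over macrophage transcripts took part was not tested. The club ratio rested on the clustering: on the log2 scale it was 1.40, and 0.27 with another random seed or with the 10 genes kept among the clustering genes. For non-classical monocytes the latter setting gave 0.29. In alveolar macrophages Gdf15 itself was 0.796 of NW.

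Other genes higher in NK were Sesn2 in alveolar type 2 cells, with a ratio of 2.01 (1.55 to 2.63), and Ddit3 in conventional dendritic cells. Those dendritic cells had 20.7, 53.3, 27.0 and 38.9 CPM and a ratio of 2.57 (1.68 to 4.00). Atf4 was higher in ciliated cells, 2.15 (1.73 to 2.70), and in club cells, 1.59 (1.21 to 2.09), the latter within the limit by TMM at 1.36. Atf5 in ciliated cells had 14.4, 25.6, 3.79 and 9.02 CPM and a ratio of 1.78 (0.996 to 3.32), whose interval holds 1. No gene passed the limit in alveolar macrophages, where 9 were measured and all genes gave 8.48% higher and 5.16% lower.

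The same contrast under HySu, HSK against HSW, had 63 measured pairings, of which 15 were higher and 4 lower, against 10.9% and 12.4% of all genes. TMM gave the same counts, against 11.3% and 11.9% of all genes. The percentages for the 10 genes were 23.8% and 6.35%. With at least 50 UMIs, 44 pairings were measured, with a median log2 ratio of -0.0085 beside -0.013 for all genes. Of these 7 were higher and 2 lower, and the share of all genes at this minimum is not given here.

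Vascular endothelium gave 3 of these 9. Gdf15 was 2.38 (1.75 to 3.24) times and Ddit3 1.56 (1.06 to 2.29) times as high in HSK as in HSW. Asns was lower, at 0.650 (0.360 to 1.123), with an interval that holds 1. With mixed cells kept, the log2 ratios were 0.42 for Gdf15, 0.24 for Ddit3 and -0.07 for Asns, all within the limit. Atf4 had a ratio of 1.27 there.

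Classical monocytes had Sesn2 at 9.60 CPM in HSW and 23.9 in HSK, a ratio of 2.49 (1.55 to 3.96), and Psat1 at 10.4 and 16.6 CPM, 1.60 (0.935 to 2.66), or 0.32 on the log2 scale with cells thinned. Atf4 was lower in interstitial macrophages, 0.622 (0.495 to 0.780), and higher in club cells, 1.51 (1.05 to 2.19). Ddit3 ratios in non-classical monocytes, 1.57 (0.796 to 2.90), and in B and plasma cells, 1.74 (0.973 to 3.03), rested on 14 and 21 UMIs in HSK, and both intervals hold 1. The club and interstitial macrophage values for Atf4 came to 0.49 with mixed cells kept and -0.43 with cells thinned, on the log2 scale.

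Other genes of the response, from lists of upstream kinases, partners, synthesis, transport, tRNA charging and further ATF4 targets, were set beside the 10. In alveolar macrophages, 11 of 40 measured were lower and 0 higher in HSW against NW, and 18 of 39 lower and 2 higher in HSK against NK, where 18.5% and 27.4% of all genes were lower. Their median log2 ratios were -0.41 and -0.55, below the all-gene medians of -0.24 and -0.33. Named by size, Mthfd2, of mitochondrial one-carbon metabolism, had 42.0 CPM in NW and 17.1 in HSW, a ratio of 0.406 (0.343 to 0.479). The arginine transporter Slc7a1 was 0.408 of NW and Cars, which charges cysteine tRNA, 0.427. In the knockout, Ddit4 was 0.319 of NK, while Eif4ebp1 was 1.67 times and the chaperone gene Sdf2l1 2.62 times NK. Ddit4 was high in that control: it had 4.02 CPM in NW, 9.70 in NK and 3.09 in HSK, and NK was 2.41 times NW.

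Among aminoacyl-tRNA synthetases, 11 of 13 were lower in alveolar type 2 cells of wild type and 10 of 13 in the knockout, with median log2 ratios of -0.73 and -0.72 beside -0.46 and -0.60 for all genes, of which 39.1% and 50.6% were lower. In vascular endothelium 6 of 13 and 5 of 13 were lower, against 19.7% and 27.6% of all genes, with medians of -0.54 and -0.52 beside -0.09 and -0.20. These counts use total UMIs and were not computed under TMM. Endothelial p53 targets were higher in 8 of 10 in wild type and 5 of 9 in the knockout, against 17.1% and 14.9% of all genes. NRF2 targets were higher in 4 of 7 and 6 of 7, led by Nqo1. It had 6.02 CPM in NW, 170 in HSW, 1.84 in NK and 207 in HSK, from 2, 290, 1 and 174 UMIs. Atf3, a partner and target of ATF4, had a ratio HSK to NK of 3.57 in endothelium. Under normoxia, Herpud1, which acts in degradation at the endoplasmic reticulum, was 2.04 times NW in NK in alveolar macrophages and 2.03 times in type 2 cells.

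Over 51 class sums of at least 30 cells, genes whose level was most like that of each stress gene were found by Pearson correlation of log2(CPM + 10). The sums share libraries and depth, so r is a description. Ankrd11 (r = 0.92), Nrbp1 (0.91) and Eif4ebp2 (0.91) came first for Atf4, and C1ra, Inmt and Prelp (0.92 each) for Atf5. Psat1 was most like Pole (0.86), Mcm10 (0.85) and Ccne1 (0.84), which act in DNA replication and the cell cycle. Phgdh was most like Cd2 (0.92), Gpr55 (0.89) and Tnfrsf26 (0.89), and Gdf15 most like Siglec1 (0.87), Myo7a (0.84) and Pparg (0.84). For Sesn2 they were Amdhd2 (0.80), Wdr81 (0.74) and Iqgap1 (0.72). Adprh (0.80), Rps16 (0.79) and Ostc (0.79) led for Ddit3, and Tm4sf1 (0.77), Itga3 (0.76) and Fzd6 (0.75) for Asns. Between members, the highest r was 0.59, for Psat1 with Phgdh. Atf4 had r = 0.56 with Ddit3 and -0.10 with Asns.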

How the data were processed

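The files hold a raw count of UMIs per gene and cell, deposited by the authors. Tools named per the submitters' processing notes are STAR 2.6.1a, cutadapt 1.17, Scanpy and featureCounts 2.0.1, with GRCm38 (mm10). Per the labels' protocols, lungs were digested, red cells lysed, and cells captured on microwell chips, 1 library for a pool of 5 mice.

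Cells with fewer than 200 genes or over 20% mitochondrial UMIs were dropped. Cells with UMIs of more than 1 lineage were removed. The rest were clustered with scanpy 1.11.5 and leidenalg 0.10.2 on 2000 variable genes without the 10 genes and the other listed stress genes (40 components, 20 neighbours, resolution 1). Thresholds for naming classes and the marker subsets for mixed cells were set after clusters had been seen. The 10 genes and the gene lists were chosen with earlier results of these data known.

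UMIs were summed per class and library, scaled by total UMIs, and compared as ratios, for classes with at least 30 cells and pairs with at least 20 UMIs; the limit was 1.5 in either direction. No test was run, with 1 library a group. Levels have exact Poisson, shares exact binomial and ratios conditional binomial 95% intervals. A UMI removes PCR copies, so these cover counting error only. A count of 0 was given a floor of 3 counts. TMM factors came from edgeR 4.0.16. Ratios were tested on simulated data. Values in every library are given for a gene in its highest class and for gene-class pairs past the limit with at least 50 UMIs, or the 20 largest a comparison. Listed genes are named from the 3 highest and 3 lowest ratios, and like genes as the 3 highest r for genes with at least 500 UMIs. Total UMIs of NW, NK, HSW and HSK were 62747087, 63501686, 45589625 and 41308071. Alternatives were TMM, scaling without mitochondrial, haemoglobin and ribosomal genes, thinned cells, removal of Scrublet calls alone, another clustering seed, the 10 genes kept among the clustering genes, a minimum of 50 UMIs and a limit of 2.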

Additional observations from a re-analysis of the deposited data

Results flagged for a closer look

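For 3 gene-class pairs in lymphocytes the ratio with HySu lay past the limit of 1.5 in opposite directions in wild type and knockout. Gdf15 in B and plasma cells was 0.502 in wild type and 2.71 in the knockout, a difference of 2.41 on the log2 scale, from 27, 25, 9 and 13 UMIs in NW, NK, HSW and HSK. Sesn2 in B and plasma cells was 1.51 and 0.2004, a difference of -2.35, from 14, 26, 14 and 1 UMIs, and its knockout ratio turned to a log2 value of 0.42 when mixed cells were kept. Sesn2 in T and NK cells was 0.439 and 2.33, a difference of 2.37, from 20, 17, 6 and 8 UMIs. The difference between the genotypes was not tested, since each group had 1 library.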

How the results depend on the processing

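Counts of gene-class pairs past the limit moved by more than 1.5 times as follows. Among these settings, the share of all genes past the limit is given above for TMM only. TMM scaling gave 12 higher and 21 lower for HSW against NW, and 19 and 18 for HSK against NK. Scaling without mitochondrial, haemoglobin and ribosomal genes gave 11 higher for HSK against NK. Thinning cells to 4000 UMIs gave 23 lower for HSW against NW, 3 lower for NK against NW and 9 higher for HSK against HSW. At least 50 UMIs gave 3 higher and 23 lower for HSW against NW, 4 higher for HSK against NK, 0 lower for NK against NW, and 7 higher and 2 lower for HSK against HSW. A limit of 2 gave 1 and 21 for HSW against NW, 8 and 3 for NK against NW, and 7 and 1 for HSK against HSW. Fewer measured pairs, or a stricter limit, account by construction for the last 2 settings and in part for thinning; for the others the cause was not tested.

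Log2 ratios past the limit of 1.5 changed sign in 15 cases; sign changes of ratios within the limit were not counted. Under TMM these were, in HSW against NW, Asns (0.17) and Gdf15 (0.30) in ciliated cells and Gdf15 in club cells (0.15), and in HSK against NK Ddit3 in ciliated (0.0748) and club cells (0.61) and Atf5 in club cells (0.72). Thinning turned Gdf15 in ciliated cells, HSW against NW, to 0.16. With mixed cells kept, HSW against NW gave Sesn2 in conventional dendritic cells 0.14, Gdf15 in fibroblasts 0.71 and Gdf15 in interstitial macrophages -0.00484. HSK against NK gave Sesn2 in B and plasma cells 0.42 and Ddit3 in interstitial macrophages -0.29. NK against NW gave Phgdh in conventional dendritic cells 0.49 and Gdf15 in fibroblasts 0.30, and HSK against HSW gave Gdf15 in fibroblasts -1.29. The cause was not tested. No paired analysis was possible because each group has 1 library. Depth limits Chac1 and Trib3 in all classes, and every gene in endothelial cells of NW.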
